A study of Homo sapiens with 26 samples.

Results

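The 10 transcripts described here are the common readouts of signalling through the kinase ERK in BRAF-mutant melanoma, together with Braf itself. They were taken by name from the first column of the 2 input count files: Dusp4, Dusp6, Spry2, Spry4, Etv4, Etv5, Phlda1, Ccnd1, Myc and Braf. All 10 names were found among 55353 gene rows, and all 10 had at least 50 counts over both libraries, the minimum used here for a measured row. RNA came from SK-MEL-28, a human melanoma line grown in serum-containing medium, either kept in salubrinal for 72 h (13 samples) or untreated (13 samples). Salubrinal slows the removal of phosphate from the translation factor eIF2α and so turns on the integrated stress response (ISR). For each treatment there was 1 input library and 12 libraries of sucrose gradient fractions named 40S, 60S, 80S and polysome, in 3 replicates each, and cycloheximide was applied before lysis. All samples are of 1 cell line, and the labels do not say whether replicates are separate cultures. The cell-line field of the labels gives other numbered names to most samples, so the titles, which all name SK-MEL-28, were followed. The BRAF allele was not measured here.

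In melanoma an activated BRAF kinase drives the kinases MEK and ERK, which switch on a set of transcripts that serve as a gauge of pathway output. Some of these encode brakes on the same pathway: DUSP4 and DUSP6 are phosphatases that act on ERK, and the Sprouty proteins act upstream, between receptors and RAF. Others encode transcription factors of the ETS family (ETV4, ETV5), cell cycle drivers (cyclin D1, MYC) or PHLDA1, a pleckstrin-homology protein.

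Counts on gene rows came to 10245548 for the salubrinal input and 12068784 for the control input. Their row names are mouse-style symbols, although the cells are human, and the sources used here do not give the reference behind them. Levels of different genes are therefore not set against each other. Melanocyte markers were present, with a summed 1372 CPM with salubrinal and 2854 CPM without over 10 markers, of which Mlana was at 0 in both libraries. CPM here are counts relative to a library size scaled by trimmed means (TMM). Of the 8 measured melanocyte markers 6 were at least 2-fold lower with salubrinal, from -2.57 for Trpm1 and -2.37 for Dct to -0.92 for Gpr143 and -0.04 for Tyr, but with libraries scaled by total counts 2 of the 8 were. The part of the melanocyte markers in the values below was not tested, and in bulk RNA fewer cells of a kind and less RNA per cell cannot be told apart. Of the 13 markers of immune, endothelial, fibroblast, epithelial and liver cells, 6 were at 0 in both libraries and the whole list summed to 2.32 CPM with salubrinal and 1.61 CPM without. With the reference not given, a row at 0 does not show that its transcript was absent. All 6 checked ISR transcripts were at least 2-fold higher with salubrinal, with a median log2 ratio of 2.22. Under TMM 2.75% of all 10614 measured rows were at least 2-fold higher and 3.8% lower.

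The ERK output transcripts stood much closer to their untreated level than the ISR transcripts did. With TMM scaling 0 of the 10 were 2-fold higher or lower with salubrinal. Of 10614 measured rows 2.75% were higher by that factor or more and 3.8% lower. With shares this small, 0 of 10 says little about these rows in particular. With libraries scaled by total counts, 6 of the 10 and 45.5% of all measured rows were at least 2-fold higher. Under TMM the median log2 ratio of the 10, salubrinal over control, was 0.12, beside 0.02 for all measured rows. Single ratios ran from -0.57 for Dusp4 to 0.80 for Spry4. The Sprouty transcripts were the highest, Dusp4 and Myc the lowest, and the other 6 lay within the middle 50% of all rows, which ran from -0.30 to 0.32. There was 1 input library per treatment, so no test was made. The 95% intervals below are exact conditional binomial ones, and since PCR reads without molecular identifiers are not independent molecules they cover counting error only.

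**Figure D1:**
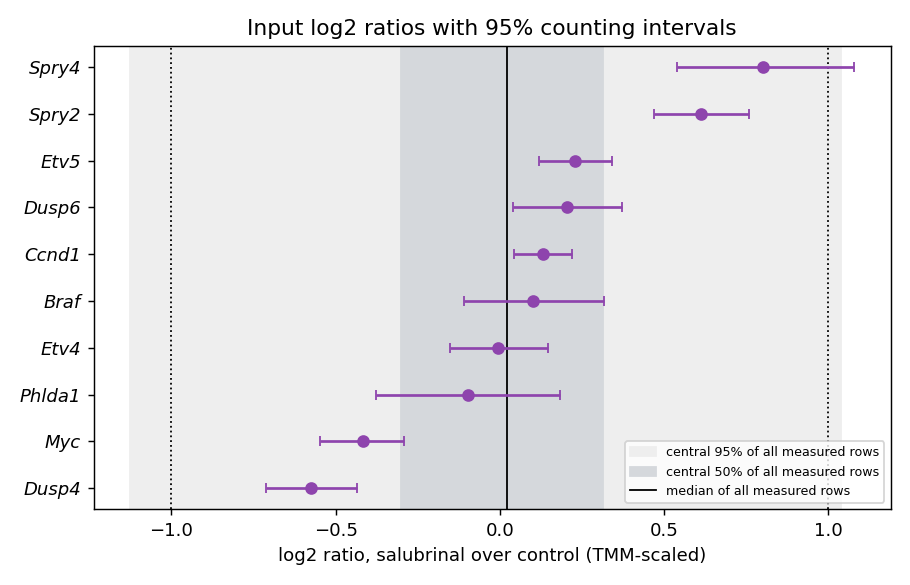
Log2 ratio of each of the 10 rows (salubrinal over control input, TMM-scaled) on the x axis, with bars for the 95% counting interval. Light and dark gray bands span the central 95% and 50% of 10614 measured rows, the solid line is their median and dotted lines mark 2-fold; all 10 points lie between the dotted lines, Spry4 and Spry2 to the right of the dark band and Myc and Dusp4 to its left.

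The 2 ERK phosphatase transcripts stood on opposite sides of 0. Dusp4, which encodes a nuclear phosphatase of ERK, had 892 counts (62.8 CPM) in the salubrinal input and 815 counts (93.6 CPM) in the control input. That is a log2 ratio of -0.57 (95% interval -0.71 to -0.44), and 12.4% of measured rows had a lower one. Dusp6, which encodes the cytoplasmic phosphatase of ERK, had 852 counts (60.0 CPM) with salubrinal and 453 counts (52.0 CPM) without, a log2 ratio of 0.21 (0.04 to 0.37). The difference between the log2 ratios of Dusp4 and Dusp6 does not depend on how libraries are scaled, and was -0.78 (-0.999 to -0.56). Among the 1255 rows within 1.5-fold of the total count of Dusp4, 6.77% had a lower ratio than Dusp4.

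Both Sprouty transcripts were higher with salubrinal. Spry2 had 1363 counts (96.0 CPM) in the salubrinal input and 546 counts (62.7 CPM) in the control input, a log2 ratio of 0.61 (0.47 to 0.76). Spry4, with 442 counts (31.1 CPM) with salubrinal and 155 counts (17.8 CPM) without, had the highest ratio of the 10 at 0.80 (0.54 to 1.08), or 1.74-fold. The interval of Spry4 reaches past 2-fold. The difference between Spry4 and Spry2 was 0.19 (-0.11 to 0.50), within counting error. Relative to Braf in the same libraries, Spry2 stood 0.51 higher (0.25 to 0.77) and Spry4 0.70 higher (0.36 to 1.05). Among rows of about the same total count, 92.5% had a lower ratio than Spry2 and 95.5% a lower ratio than Spry4.

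The human sequence upstream of 3 of these genes is shown because one had a high ratio (SPRY2), one a ratio slightly above 0 (DUSP6) and one a ratio slightly below it (PHLDA1). RefSeq promoter windows (GRCh38.p14) were matched by human symbol for 5 of the 10 genes, and the 250 bases before the annotated start are printed 5′ to 3′ on the gene's strand. Capitals mark CCGGAA on either strand, a longer form of the GGAA core of the motif family that ETV4 and ETV5 bind. GGAA alone was not marked or counted, and it occurs, for example, in the DUSP6 window. The windows are chr13:80341127-80341376 (minus strand) for the most upstream of 3 listed SPRY2 starts, chr12:89352502-89352751 (minus strand) for DUSP6 and chr12:76031777-76032026 (minus strand) for PHLDA1.
SPRY2: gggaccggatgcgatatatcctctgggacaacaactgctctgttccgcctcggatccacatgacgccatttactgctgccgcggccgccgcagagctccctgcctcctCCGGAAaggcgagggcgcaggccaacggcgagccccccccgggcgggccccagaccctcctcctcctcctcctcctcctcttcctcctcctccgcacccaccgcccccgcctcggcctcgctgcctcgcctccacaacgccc
DUSP6: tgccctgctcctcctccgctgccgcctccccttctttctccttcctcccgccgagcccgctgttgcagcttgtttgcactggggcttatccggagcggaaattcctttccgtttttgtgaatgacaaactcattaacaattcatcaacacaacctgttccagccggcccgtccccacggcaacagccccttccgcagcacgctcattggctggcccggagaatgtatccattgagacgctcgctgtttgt
PHLDA1: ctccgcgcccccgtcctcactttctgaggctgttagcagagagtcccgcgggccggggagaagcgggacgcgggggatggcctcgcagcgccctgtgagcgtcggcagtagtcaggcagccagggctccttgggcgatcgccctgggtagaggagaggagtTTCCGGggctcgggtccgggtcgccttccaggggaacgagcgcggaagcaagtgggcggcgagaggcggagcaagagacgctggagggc
CCGGAA was found in the SPRY2 window, where it begins 142 bases upstream of the start, and in the PHLDA1 window, on the opposite strand 89 bases upstream. These were the only matches in the 7 windows of the 5 genes, so 2 of 7 held CCGGAA, against 14.5% of 35116 windows of all genes. CCGGAA was not in the window of SPRY4, which had the highest ratio of the 10. The other SPRY2 windows and those of DUSP6 and BRAF also lacked it. The AP-1 motif TGANTCA, the CRE TGACGTCA and the ATF4-type motif TGATGNAA, searched on both strands, were in 0 of the 7 windows, against 6.57%, 1.65% and 3.14% of all windows. A match is a run of letters and not a measured binding site, and no match says only that the letters are not in the window.

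The ETS factor transcripts were near the middle of all rows. Etv4, which encodes a PEA3-group factor, had 969 counts (68.3 CPM) in the salubrinal input and 596 counts (68.4 CPM) in the control input, a log2 ratio of -0.0036 (-0.15 to 0.15). Etv5, its close relative, had 1900 counts (133.8 CPM) with salubrinal and 994 counts (114.1 CPM) without, a log2 ratio of 0.23 (0.12 to 0.34). The interval of Etv4 spans 0 and that of Etv5 does not. The difference between Etv5 and Etv4 was 0.23 (0.05 to 0.42).

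The 2 growth regulators also differed from each other. Ccnd1, which encodes cyclin D1, the partner of CDK4 and CDK6 at the start of the cell cycle, had 2918 counts (205.5 CPM) with salubrinal and 1634 counts (187.6 CPM) without. Its log2 ratio was 0.13 (0.04 to 0.22), or 1.10-fold. Myc, which encodes a transcription factor of growth and ribosome production, had 1106 counts (77.9 CPM) in the salubrinal input and 907 counts (104.1 CPM) in the control input. Its log2 ratio was -0.42 (-0.55 to -0.29), with 18.7% of measured rows lower, and the difference between Myc and Ccnd1 was -0.55 (-0.71 to -0.39).

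Under TMM scaling the intervals of Phlda1 and Braf held 0. Phlda1 had 268 counts (18.9 CPM) with salubrinal and 176 counts (20.2 CPM) without, a log2 ratio of -0.10 (-0.38 to 0.18). Braf, the kinase at the head of the cascade in these cells, had 499 counts (35.1 CPM) with salubrinal and 285 counts (32.7 CPM) without, a log2 ratio of 0.10 (-0.11 to 0.32). Set against Braf, Dusp4 stood at -0.68 (-0.93 to -0.42), Myc at -0.52 (-0.77 to -0.27), Ccnd1 at 0.03 (-0.20 to 0.26) and Dusp6 at 0.10 (-0.17 to 0.38). In all, 11 such differences were computed, between pairs picked with the values known.

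**Figure D2:**
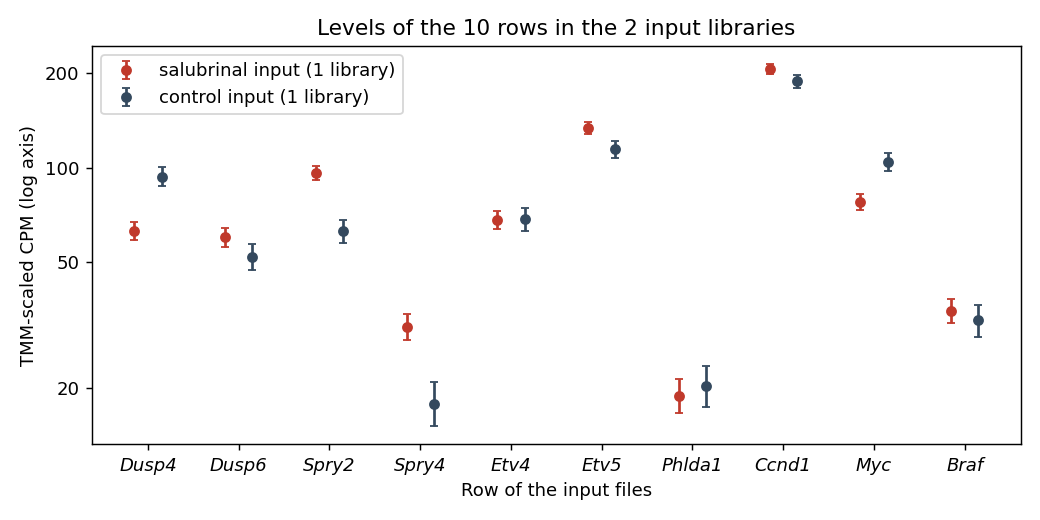
TMM-scaled CPM (log y axis) of the 10 rows in the salubrinal input (red, left) and the control input (dark blue, right), 1 library each, with 95% Poisson intervals for counting error. Spry2 and Spry4 are higher with salubrinal (96.0 against 62.7 CPM and 31.1 against 17.8 CPM), and Dusp4 and Myc lower (62.8 against 93.6 CPM and 77.9 against 104.1 CPM).

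The direction of Dusp4 and Myc, and the level of all 10 rows, depends on the scaling of the 2 libraries. A single row, CT010467.1, held 12.8% of gene-row counts after salubrinal and 56.7% in control cells, and scaling by total counts moved the median of all rows by 0.93. Under it Dusp4 stood at 0.37 and Myc at 0.52, still -0.56 and -0.40 relative to that shift, and 6 of the 10 rows were at least 2-fold higher, as were 45.5% of all measured rows. Braf then stood at 1.04 and Phlda1 at 0.84, both above their intervals under TMM.

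Relatives of the 10 genes were compared in the same libraries, with TMM scaling throughout; scaling by total counts adds about 0.93 to each ratio and so turns those between 0 and about -0.93 positive. All 5 measured transcripts of the Sprouty and Spred family, which share a domain and act as brakes on RAS-to-RAF signalling, were higher with salubrinal, with log2 ratios from 0.56 to 0.80. Beside Spry2 and Spry4 these were Spry1 at 0.71 (119 counts with salubrinal and 44 without), Spred2 at 0.59 (375 and 152 counts) and Spred1 at 0.56 (1661 and 689 counts). Spry3 and Spred3 had fewer than 50 counts. This grouping was made after the values were seen. Of all 10614 measured rows 5524 were above 0, 88.2% had a lower ratio than Spred1 and 94.5% a lower ratio than Spry4. The 9 measured DUSP transcripts among those looked up did not share a direction: 5 were above 0 and 4 below. They ran from 0.32 for Dusp5 to -1.09 for Dusp3, a phosphatase with ERK among its substrates. Dusp7, a close relative of Dusp6, stood at -1.04 on 40 and 52 counts. Of the 9 measured ETS factor rows looked up 4 were above 0 and 5 below, from 0.40 for Elk4 to -0.999 for Erf, which encodes an ETS repressor held in check by ERK. Other DUSP and ETS genes were not looked up.

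**Figure D3:**
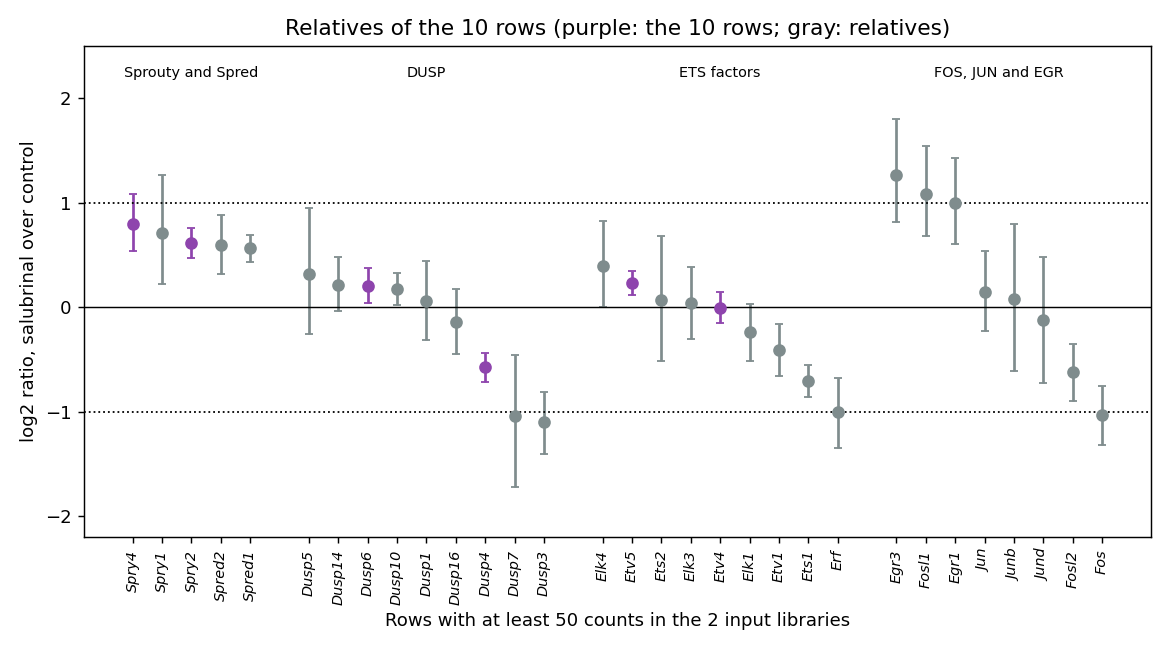
Log2 ratio (salubrinal over control input, y axis) with 95% counting intervals for the measured rows looked up in 4 families, purple for the 10 rows and gray for relatives. All 5 Sprouty and Spred rows lie above 0, between 0.56 and 0.80, while DUSP rows run from -1.09 to 0.32, ETS factors from -0.999 to 0.40 and FOS, JUN and EGR rows from -1.03 to 1.27. Ratios are TMM-scaled, and with total counts those between 0 and about -0.93 turn positive. Of all 10614 measured rows 5524 were above 0.

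Wider lists of the pathway had medians near that of all rows, with single transcripts far from it. Under TMM scaling, used for these lists, 2.75% of all 10614 measured rows were at least 2-fold higher and 3.8% lower. In the list of other feedback and phosphatase genes, 13 rows were measured, with a median of 0.22, of which 1 was 2-fold or more higher and 3 lower. The highest was Errfi1, which encodes an inhibitor of the EGF receptor, at 1.45 (290 counts with salubrinal and 64 without). The 3 lower rows were the phosphatase genes Dusp3 and Dusp7 and, as listed, Lzts1, which is not a phosphatase gene. Among 20 measured rows of immediate early and other ERK-responsive transcription factor genes, which had a median of 0.0083, 2 were 2-fold or more higher and 1 lower. Egr3 stood at 1.27 (180 and 45 counts) and Fosl1, which encodes the AP-1 member FRA1, at 1.08 (210 and 60 counts), while Fos was at -1.03 (194 counts with salubrinal and 244 without) and Erf at -0.999.

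Of 14 measured rows of other published MEK output signatures, 3 were at least 2-fold higher and 0 lower, with a median of 0.0051. Among all measured rows 2.75% were higher and 3.8% lower by that factor. Lif, a cytokine gene, stood at 2.54 on 448 counts with salubrinal and 46 without. Slc20a1, a phosphate transporter gene, was at 1.25 on 25783 and 6652 counts, and the chromatin protein gene Hmga2 at 1.13. Rrs1 and Epha4 were the lowest at -0.88 and -0.60.

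Under TMM scaling the transcripts upstream of ERK were close to level. The 13 measured rows of the cascade core had a median of -0.04, with 1 at least 2-fold higher and 0 lower, beside 2.75% and 3.8% of all measured rows. Lamtor3, a MEK scaffold gene, was highest at 1.34 but on 82 and 19 counts, followed by Shoc2 at 0.67, while Pebp1, a RAF inhibitor gene, and Araf were lowest at -0.38 and -0.22. The 15 measured receptor and adaptor rows had a median of 0.14 and none was 2-fold apart, from Shc1 at 0.63 and Rasa1 at 0.57 to Igf1r at -0.47 and Gab1 at -0.75. With total counts 5 of the 13 cascade core rows and 9 of the 15 receptor and adaptor rows were at least 2-fold higher. So were 45.5% of all measured rows.

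The lists of partners and regulators of Ccnd1 and Myc had medians within the middle 50% of all rows. Of 15 measured G1 cyclin network rows, 0 were 2-fold higher and 1 was 2-fold lower, beside 2.75% and 3.8% of all measured rows. Their median was -0.13. Ccnd3, another D-type cyclin gene, was lowest at -1.002, next to E2f2 at -0.98, and the CDK inhibitor gene Cdkn2c and the RB-family gene Rbl2 were highest at 0.26 each. Ccnd2 had 0 counts in both libraries. The 7 measured rows of the MYC network had a median of -0.16, from Fbxw7, whose product marks MYC protein for degradation, at 0.26 and Mxi1 at 0.21 to Mnt at -0.59 and Mlxip at -1.13. Among relatives of Phlda1, Phlda3 stood at 0.06 and Phlda2 at -1.36, which had 20 counts with salubrinal and 34 without.

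The gradient fraction files held too few counts on these genes for a test. Over 24 files the 10 rows, here with human symbols, had 88 of 290380 counts outside ribosomal RNA (rRNA) rows. That was 25 counts, or 2.86 per 10000, in the salubrinal files and 63 counts, or 3.11 per 10000, in the control files. Counts outside rRNA rows ran from 873 to 23714 per file. Outside those rows the 4 fraction files of a replicate differed by no more than sampling noise, with chi-square per degree of freedom from 0.936 to 1.03, once the control 40S files titled 1 and 2 were exchanged (as titled 1.23 and 1.47). Between the 3 replicates of a fraction it was 1.57 to 8.15. The 24 files are therefore counted as 6 libraries below, as chosen once the counts were known, and the fractions are not compared for these genes.

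PHLDA1 had the most counts, with 1, 0 and 5 in the 3 salubrinal libraries and 5, 0 and 14 in the 3 control libraries. DUSP6 had 1, 0 and 5 counts with salubrinal and 5, 2 and 9 without. CCND1 had 0, 0 and 4 counts with salubrinal and 9, 1 and 4 without. In these 3 rows the groups overlap, and the salubrinal library that holds most of the counts is also the deepest, with 73598 counts outside rRNA rows against 10158 and 3768 in the other 2.

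SPRY2 was the one row of the 10 with more counts in salubrinal than in control files, with 1, 0 and 5 counts in the salubrinal libraries and 1, 1 and 2 in the control libraries. Its share of counts outside rRNA rows was 0.686 per 10000 with salubrinal and 0.197 per 10000 without, a ratio of 3.48 with a 95% counting interval of 0.824 to 16.8. That interval holds 1. By library the shares were 0.984, 0 and 0.679 per 10000 with salubrinal and 0.116, 0.442 and 0.213 without, so the groups overlap here too. The 0.984 rests on 1 count. The library at 0 had 3768 counts outside rRNA rows in all, too few to place it. The share ratios of DUSP4, DUSP6, SPRY4, PHLDA1 and CCND1 were 0.773, 0.869, 0.927, 0.732 and 0.662. SPRY4 had 2 and 5 counts in the salubrinal and control files, DUSP4 had 1 and 3, and ETV4 and ETV5 had 0 and 1 each.

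MYC and BRAF had 0 counts in all 24 files, which allows up to 0.103 per 10000 counts outside rRNA rows (3 counts over all files). In the input, with its mouse-style rows, both were well above the minimum. Input and fraction rows carry different symbols, and their levels are not set against each other. Why both rows were at 0 in the fraction files was not tested, and the zeros do not show whether either transcript was on ribosomes. Genes that overlap a row can share its reads: DHX8 overlaps ETV4 and had 14 counts in salubrinal and 34 in control files, and ETV5-AS1 overlaps ETV5 and had 0 and 3. No row was found for PHLDA1-AS1, POC1B-DUSP6, SPRY4-IT1, LOC124909470 and RNU6-85P, which overlap PHLDA1, DUSP6, SPRY4, ETV5 and BRAF in that order.

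None of the 10 rows passed the low-count filter of the edgeR quasi-likelihood test in any fraction, so 0 were tested. Of the rows that were, 8% of 225 were called at an adjusted p of 0.05 in 40S, 9.83% of 234 in 60S, 12.7% of 213 in 80S and 3.73% of 241 in polysome. Without the filter 6, 6, 6 and 7 of the 10 rows entered the test in 40S, 60S, 80S and polysome, and 0 were called, with 0 at an unadjusted p under 0.05. DESeq2 also called 0, with a smallest unadjusted p of 0.273 for SPRY4 in 80S (adjusted p = 0.99). The smallest unadjusted edgeR p was 0.0512, for SPRY2 in 60S (adjusted p = 0.624). Since the 4 fraction files of a replicate differed by no more than sampling noise, results by fraction are not independent tests.

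**Figure D4:**
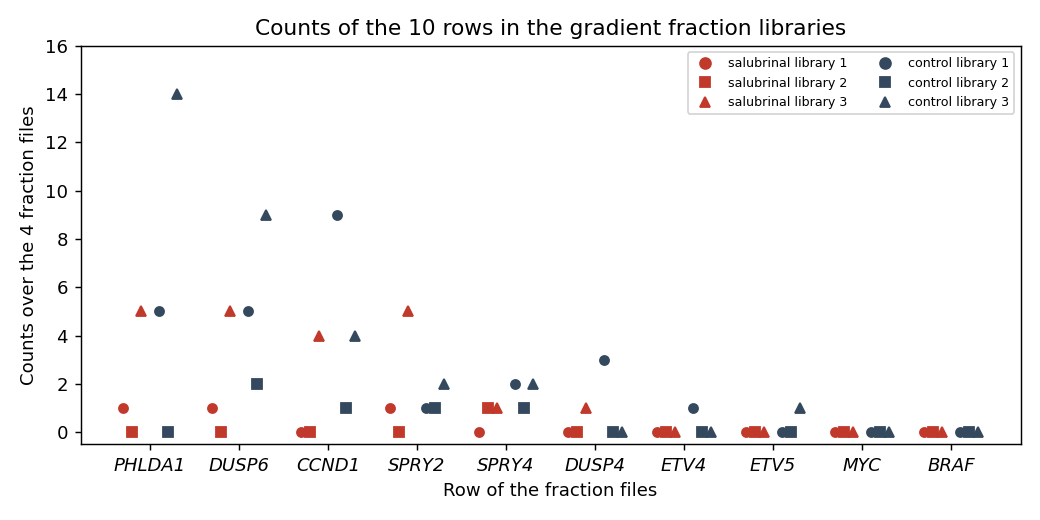
Counts of each row summed over the 4 gradient fraction files (y axis) in 3 salubrinal libraries (red, left) and 3 control libraries (dark blue, right), marked by library number, with the control 40S files titled 1 and 2 exchanged. No row exceeds 14 counts in a library, and MYC and BRAF are at 0 in all 6.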

How the data were processed

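All values are read counts per gene, which the authors deposited as raw counts with no normalization. Tools listed in the submitters' processing notes, without their roles, were STAR, HTSeq 0.5.3p3, SAMtools 0.1.19.24, DESeq and FastQC 0.11.5. The build listed is hg19, although the input rows carry mouse-style symbols. Whether counting used strand is not stated in those notes. Libraries were made with a stranded total RNA kit, per the labels' protocols. Rows that name no gene were left out, and gene rows held 7.06% of counts for the salubrinal input, 5.94% for the control input and 4.72 to 5.79% in the fraction files.

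Input ratios are log2 ratios of counts scaled by TMM (edgeR 4.0.16, R 4.3.3) with a prior count of 2, for rows with at least 50 counts over both libraries, with exact binomial intervals at 95%. Fractions were compared between treatments with edgeR (filterByExpr, TMM, robust glmQLFit, Benjamini-Hochberg threshold 0.05; 3 libraries per group), with DESeq2 1.42.0 as an alternative. The spread that p-values rest on is that between these samples and may be technical. Both steps were tested on simulated counts. The simulated fractions held only rows that pass the filter, so they do not bear on the 10 rows there. The simulated input held counting error only. All 10 members are named, and of each list the 2 highest and 2 lowest measured rows; Spred1, Spred2, Hmga2, Lzts1, Dusp5, Elk4 and Ccnd2 were named after their values were seen. The members and lists were chosen with earlier results of these data known. All 10 human symbols matched a RefSeq table (GRCh38.p14), which served for names and gene overlaps.

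Alternatives were other scalings, prior counts and count minimums for the input, and RLE size factors, no filter, a replicate block, DESeq2 and leaving out each replicate for the fractions.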

Additional observations from a re-analysis of the deposited data

How the results depend on the processing

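In the input, only scaling by total counts moved the 10 rows beyond their counting intervals. Under it 6 rows were at least 2-fold higher, the median of the 10 was 1.06, and Dusp4 (0.37) and Myc (0.52) changed sign, while the median of all rows moved by 0.93. Relative to that shift the median of the 10 was 0.13. The fixed lists, rescaled in the same way after the data were seen, had 2 of 8 melanocyte markers 2-fold lower and 0 rows 2-fold lower in every other list with measured rows. At least 2-fold higher were 5 of 13 cascade core and 9 of 15 receptor and adaptor rows. So were 8 of 13 feedback and phosphatase rows and 7 of 20 immediate early rows. For MEK output, MYC network, G1 cyclin and ISR rows it was 6 of 14, 3 of 7, 3 of 15 and 6 of 6. It was 0 for PHLDA relatives and melanocyte markers, beside 45.5% of all measured rows. Under RLE or upper-quartile factors, TMM without abundant and mitochondrial rows, prior counts of 0.5 and 5 and minimums of 20 and 200 counts, 0 of the 10 rows were 2-fold apart and 70 of 70 member ratios stayed within their intervals. Among all rows 292 were higher and 403 lower, against 4830 and 30 with total counts, 480 and 608 with a minimum of 20 and 141 and 170 with a minimum of 200.

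In the fractions 0 of the 10 rows were called under every alternative run, in most of which none was tested. All-row calls in 40S, 60S, 80S and polysome were 18, 23, 27 and 9, against 0, 9, 15 and 4 with the replicate block on titles as deposited, 1, 0, 0 and 0 without the filter, and 0 in each with DESeq2 (53, 45, 59 and 57 at an unadjusted p under 0.05). RLE size factors gave 27 in 40S. Without the filter 136, 135, 165 and 153 rows had an unadjusted p under 0.05. Leaving out 1 replicate gave 0 to 47, 0 to 39, 0 to 46 and 0 to 39 calls. Same-numbered samples correlated at -0.10 to 0.26 in their deviations, over 0.1 in 7 of 12 comparisons and best with their own number in 9 of 12. Replicates 2 and 3 were over 0.1 in 60S, 80S and polysome and replicate 1 in none, which hints at shared structure but does not meet the rule that every pair be over 0.1, so the numbers were not taken to pair samples. With the control 40S files titled 1 and 2 exchanged, an alternative chosen after seeing the data, 8 of 12 were over 0.1 and the 40S replicate block gave 0 calls, with 37 rows under 0.05 before adjustment. The input has 1 library per treatment, which no setting can make up for, and the fraction depth limits every statement on ribosome-bound RNA of these genes.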
